A study of Homo sapiens with 12 samples.

Results

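Transcripts of 36 genes of glycolysis and the hypoxia response were compared between MUC1-C-silenced and control HNSCC cells. The genes were chosen by symbol for their known roles in glucose uptake, the steps of glycolysis, the fate of pyruvate and lactate, oxygen sensing and the response to low oxygen. They make up 36 of the 39368 symbols that were counted, and all of them were found in the tables of both cell lines.

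Glycolysis converts glucose into pyruvate through a chain of cytosolic enzymes, and lactate dehydrogenase turns pyruvate into lactate, which leaves the cell on monocarboxylate transporters. When oxygen is low, the prolyl hydroxylases that mark the HIF-1α protein for destruction lose activity, and the stabilized factor raises transcription of glucose transporters, most glycolytic enzymes and genes of pH control, angiogenesis and mitophagy. HNSCC tumors are known for high glucose uptake and for hypoxic regions.

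CAL27 and HSC3 are cell lines in long use that were established from HPV-negative HNSCC. Cells of both lines carried tet-MUC1shRNA, an shRNA against MUC1 that is expressed when doxycycline (DOX) is present, and received for 7 days either vehicle (DMSO at 0.1%) or DOX at 500 ng/mL, giving 4 groups of 3 libraries made from triplicate cultures. The lines were kept in different media, DMEM for CAL27 and minimum essential medium for HSC3, so line and medium cannot be told apart. DOX-treated cells with a control shRNA were not analysed here, and silencing of MUC1 cannot be told apart from anything else that DOX or the shRNA does.

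The libraries held 92866845 to 126328662 counts in CAL27 cells and 89730914 to 169065103 counts in HSC3 cells. MUC1 itself (GRCh38, chromosome 1 from 155185824 to 155192916) measured 60.9 ± 2.61 CPM, counts scaled to a common library size, in vehicle-treated and 3.28 ± 0.274 in DOX-treated CAL27 cells (SD, n = 3), which gave a log2 fold change of -4.21 (SE 0.067, edgeR adjusted p = 1.62e-19), where SE is its standard error. In HSC3 cells, where its level was already lower with vehicle, it measured 1.598 ± 0.161 and 0.214 ± 0.0834 CPM (SD, n = 3), which gave a log2 fold change of -2.88 (SE 0.38, edgeR adjusted p = 2.02e-04). Each molecule gave an estimated 2.42 to 3.38 counts in CAL27 libraries, 4.19 to 7.45 in HSC3 libraries with vehicle and 8.98 to 17.3 in HSC3 libraries with DOX, with the highest value in HSC3 DOX replicate 1, so low counts stand for fewer molecules than their number. All 9 squamous epithelial markers that were checked passed the filter on low counts in both lines. Their summed level ran from 8760 to 9032 CPM with vehicle and from 4508 to 4706 with DOX in CAL27 cells, and from 7158 to 7759 and from 4138 to 4487 in HSC3 cells. Of the 9, 7 fell and 1 rose in CAL27 cells, where 21.8% of all genes fell and 22.6% rose. In HSC3 cells 5 fell and 1 rose, against 15.4% and 13.0% of all genes. KRT14 fell most, by a log2 fold change of -2.90 and -1.88, and EPCAM rose, by 0.40 and 0.87. Summed fibroblast markers stayed at or under 15.6 CPM, endothelial markers at or under 16.7 and immune markers at or under 0.642 in every library. Whether the change in squamous markers had a part in the results for the glycolysis and hypoxia genes was not tested.

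Levels are CPM normalized by edgeR's TMM method within each cell line, and library values are given in the order of the replicate numbers. Genes count as called where edgeR's two-sided quasi-likelihood test gave an adjusted p under 0.05, with Benjamini-Hochberg adjustment over every gene tested in that line. In a bulk library, fewer cells that express a gene and less RNA per cell cannot be told apart. In CAL27 cells all 36 genes were tested, and 5 rose and 17 fell, against 22.6% of all genes that rose and 21.8% that fell. In HSC3 cells 35 were tested, and 5 rose and 10 fell, against 13.0% and 15.4% of all genes. CA9 was the gene left out in HSC3 cells, where it had too few counts. The median log2 fold change of the genes tested was -0.16 for CAL27 and -0.15 for HSC3, and that of all genes was -0.0052 and -0.0097. Few of the changes were large. With a fold change above 2, the threshold of the study, no gene rose in either line, 2 fell in CAL27 cells (CA9 and NDRG1) and 3 fell in HSC3 cells (LDHA, PGAM1 and NDRG1). The background at that threshold was 1.31% of all genes higher and 5.11% lower in CAL27 cells, and 1.58% and 4.40% for HSC3 cells.

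By separation of the libraries, all 3 DOX libraries were above all 3 vehicle libraries for 5 genes and below them for 18 genes in CAL27 cells, where the same held for 26.0% and 26.3% of all genes. In HSC3 cells it held for 5 and 10 genes, against 19.8% and 22.8% of all genes. The genes that fell in both lines were GPI, ALDOA, PGAM1, PDK3, BNIP3, NDRG1 and P4HA1. Those that rose in both were HK2 and PFKM. HIF1A and ADM fell in CAL27 cells and rose in HSC3 cells, SLC16A1 did the opposite, and 11 genes were called in neither line. On leaving out 1 library, the number of genes that rose in CAL27 cells was 8 without the third DOX library and 3 without vehicle replicate 1 or 2 or the first or second DOX library, and in HSC3 cells it was 8 without DOX replicate 1. The number that fell in HSC3 cells was 7 without vehicle replicate 1 or 2 and 8 without vehicle replicate 3. In CAL27 cells the number that fell stayed at 16 to 18. In 1 fit of all 12 libraries, SLC2A1, PGK1, PDK3, HIF1A, PFKFB3, PFKM and TPI1 lost their call in CAL27 cells, with an edgeR adjusted p of 0.0604 to 0.406.

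**Figure D1:**
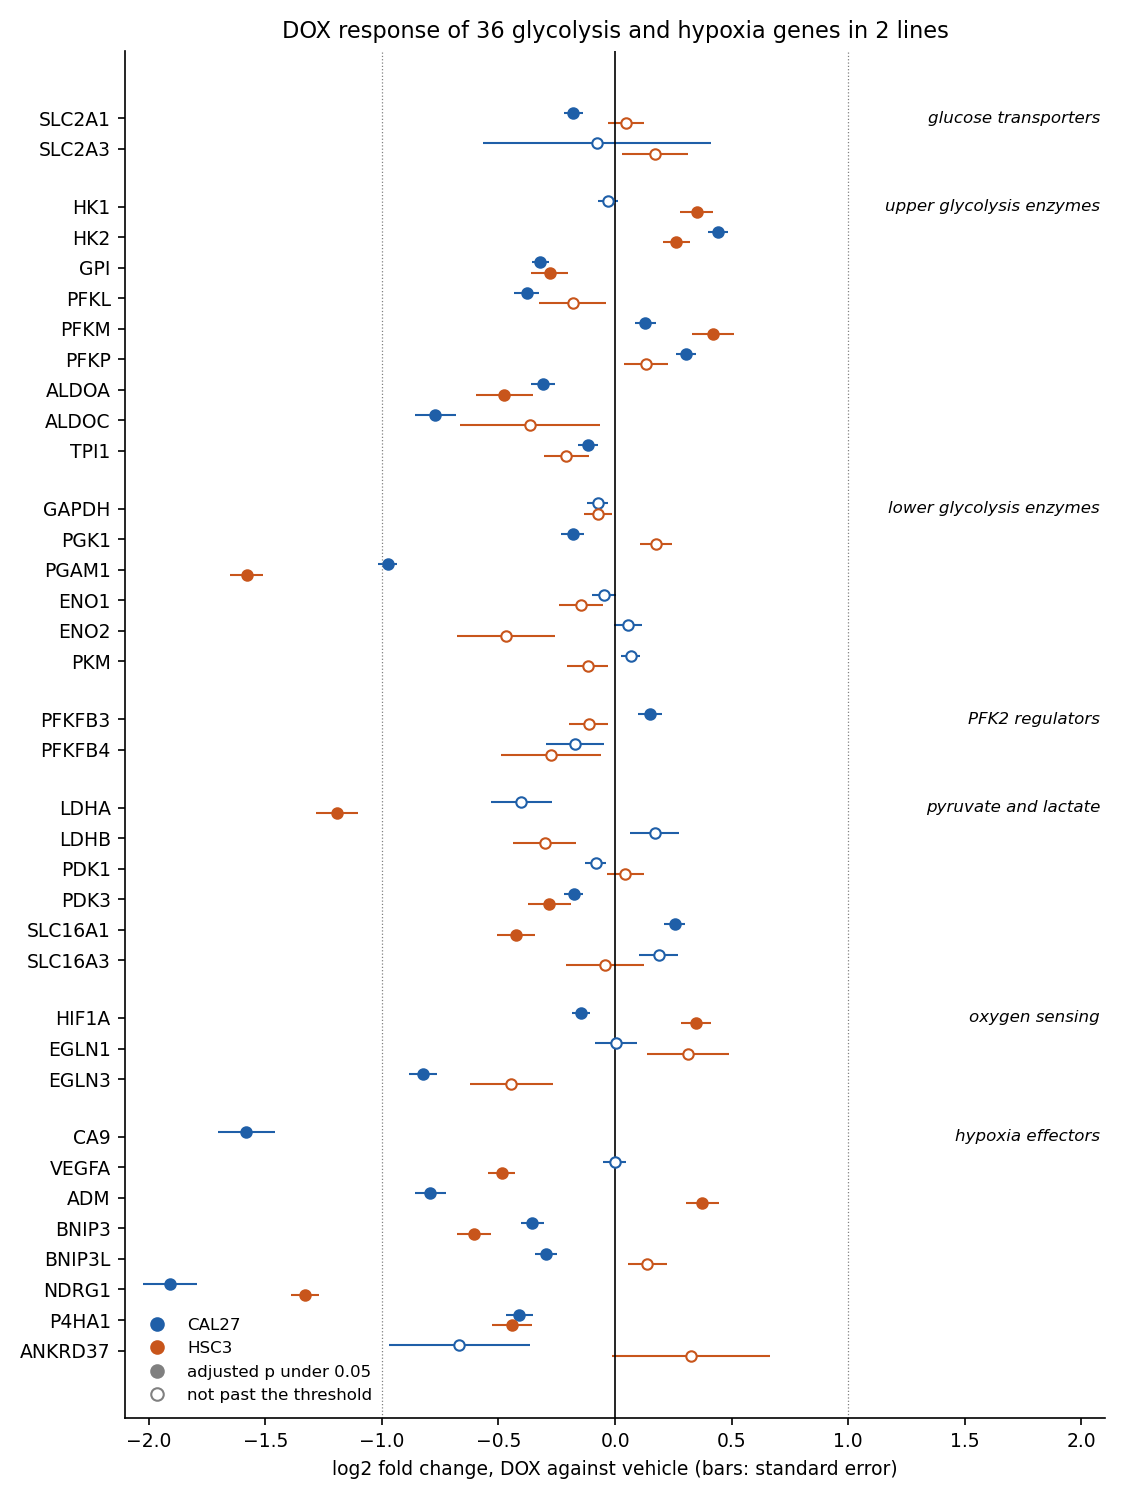
Log2 fold change of each gene with DOX against vehicle, by role, in CAL27 (blue) and HSC3 (orange) cells, with bars for the standard error, filled points for an edgeR adjusted p under 0.05 and dotted lines at a fold change of 2 in each direction. NDRG1, PGAM1, LDHA and CA9 reach furthest to the left, and HIF1A, ADM and SLC16A1 have filled points on opposite sides of 0; CA9 has no HSC3 point because it was not tested there.

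The promoters of many hypoxia-induced genes carry the short core of the hypoxia response element, and the stretches that hold it are shown, to let a reader see how the cores lie, for the genes called in both lines and for LDHA and CA9, which fell by more than a fold of 2 in the only line that called them. RefSeq promoters on GRCh38.p14 were matched for 31 of the 36 genes (SLC2A3, SLC16A1, VEGFA, BNIP3L and NDRG1 were not matched), and the 250 bases before the gene start of the RefSeq table were searched on both strands for ACGTG and for GCGTG. Capitals mark a match, ACGTG or GCGTG on the printed strand or CACGT or CACGC where the match lies on the other strand, and CACGTG is a match on both strands. Among the genes printed, the RefSeq starts of GPI, P4HA1, ALDOA, PDK3, LDHA and BNIP3 lie inside the gene as GENCODE places it. Their 250 bases searched therefore overlap it, and of the stretches printed those of GPI and P4HA1 do. Each sequence is printed along the strand of its gene, with 10 bases on either side of the outermost matches shown.
LDHA, chr11:18394368-18394504, plus strand: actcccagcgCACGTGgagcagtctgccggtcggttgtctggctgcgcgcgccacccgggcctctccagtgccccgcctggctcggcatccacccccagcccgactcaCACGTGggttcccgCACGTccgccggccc
BNIP3, chr10:131982013-131982076, minus strand: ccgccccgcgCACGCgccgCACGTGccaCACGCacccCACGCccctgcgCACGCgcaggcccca
PDK3, chrX:24465174-24465239, plus strand: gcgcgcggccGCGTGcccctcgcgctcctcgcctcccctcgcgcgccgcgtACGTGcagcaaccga
P4HA1, chr10:73096938-73096962, minus strand: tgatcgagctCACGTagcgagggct
GPI, chr19:34364820-34364844, plus strand: actgcctgtaACGTGgaaggtgttc
ALDOA, chr16:30064091-30064115, plus strand: ttcccctccaCACGTcaacgattct
HK2, chr2:74834062-74834093, plus strand: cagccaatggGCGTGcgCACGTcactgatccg
HIF1A, chr14:61695299-61695323, plus strand: gctgagagcgGCGTGggctggggtg
CA9, chr9:35673900-35673924, plus strand: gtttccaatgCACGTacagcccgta
ADM, chr11:10304962-10304986, plus strand: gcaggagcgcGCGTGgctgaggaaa
LDHA held 5 matches and BNIP3 held 6 in windows of 137 and 64 bases, and the other 8 stretches held 1 or 2. HK2, which rose in both lines, had 1 more match further upstream, which is not shown. Among the other genes called in 1 line, ALDOC held 5 matches, PGK1 held 3, and PFKL and PFKFB3 held 1 each, while SLC2A1, HK1, PFKP, TPI1 and EGLN3 held none. Of the matched genes called in neither line, GAPDH, ENO1, ENO2, PFKFB4, EGLN1 and ANKRD37 held matches. PKM, LDHB, PDK1 and SLC16A3, also called in neither, held none. Of the 31 matched genes, 14 (45.2%) held ACGTG, against 18.6% of 27305 RefSeq promoters searched in the same way, and 11 (35.5%) held GCGTG, against 31.9%. Either was found in 20 (64.5%) against 43.1%. The genes were chosen in part for their known response to low oxygen, and the promoters searched were not matched to them for base content. No test was run on these shares. PGAM1, which fell in both lines, and PFKM, which rose in both, held neither in their windows. A match is a run of letters and not a measured binding site.

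Glucose enters through transporters of the SLC2A family. SLC2A1 (GLUT1), the main basal glucose transporter, was at 224, 214 and 202 CPM with vehicle and at 193, 189 and 183 with DOX in CAL27 cells. Every DOX library was below every vehicle library, and the log2 fold change was -0.18 (SE 0.042, edgeR adjusted p = 0.00144). In HSC3 cells the groups overlapped, at 232 ± 21.6 CPM and 240.0 ± 12.6 (SD, n = 3), with a log2 fold change of 0.047 (SE 0.076, edgeR adjusted p = 0.715). SLC2A3 (GLUT3), a high-affinity transporter, was close to absent in CAL27 cells, with 10 to 20 counts in each library, and measured 9.16 ± 0.803 CPM with vehicle and 10.3 ± 1.63 with DOX (SD, n = 3) in HSC3 cells, where the libraries overlapped and its edgeR adjusted p was 0.434.

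Of the 9 enzymes of upper glycolysis, 3 rose and 5 fell in CAL27 cells and 3 rose and 2 fell in HSC3 cells. The shares of all genes that rose and fell (22.6% and 21.8% for CAL27, 13.0% and 15.4% for HSC3) apply to each group of genes that follows. The hexokinases trap glucose in the cell by phosphorylating it. HK2, the inducible form, was at 86.7, 90.9 and 89.7 CPM with vehicle and at 119, 127 and 117 with DOX in CAL27 cells. Its HSC3 libraries held 121, 125 and 124 CPM with vehicle and, with DOX, 146, 146 and 151. The groups did not overlap in either line, and the log2 fold change was 0.44 (SE 0.042, edgeR adjusted p = 3.31e-08) in CAL27 cells and 0.26 (SE 0.056, edgeR adjusted p = 0.004900) in HSC3 cells. HK1, the form found in most tissues, did not pass the test in CAL27 cells (135 ± 2.57 and 132 ± 7.56 CPM, SD, n = 3), while in HSC3 cells it was at 212, 214 and 205 CPM with vehicle and at 243, 289.6 and 272 with DOX, all above the vehicle libraries, with a log2 fold change of 0.35 (SE 0.070, edgeR adjusted p = 0.00342). The share of HK2 in the summed, length-normalized level of HK1 and HK2 was 43.4% ± 0.267 with vehicle and 51.5% ± 0.859 with DOX (SD, n = 3) in CAL27 cells, with no overlap (exact permutation p = 0.1, two-sided, the smallest that 3 against 3 can give). Such shares depend on the length taken for each gene, here all annotated exons. These span 6876 bases for HK1, with a longest transcript of 3998, against 5918 and 5626 for HK2. Whether HK2 passed HK1 is therefore not settled. In HSC3 cells, where both hexokinases rose, the share of HK2 was 40.5% ± 0.687 and 39.1% ± 2.02 (SD, n = 3), and the groups overlapped.

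GPI, which converts glucose 6-phosphate to fructose 6-phosphate, was at 540.0, 531 and 521 CPM with vehicle and at 431, 420.1 and 423 with DOX in CAL27 cells and at 244, 249 and 239 and 176, 210.0 and 217 in HSC3 cells. The DOX libraries were lower in both lines without overlap, with a log2 fold change of -0.32 (SE 0.037, edgeR adjusted p = 4.58e-07) and -0.28 (SE 0.079, edgeR adjusted p = 0.0209). The HSC3 call was lost on leaving out any 1 of the 3 vehicle libraries, with an edgeR adjusted p of 0.0618 to 0.0875.

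Phosphofructokinase commits the sugar to glycolysis, and its 3 subunit genes moved apart. PFKL, the liver type, fell from 80.7 ± 1.42 to 62.1 ± 5.41 CPM (SD, n = 3) in CAL27 cells, which gave a log2 fold change of -0.38 (SE 0.052, edgeR adjusted p = 8.43e-06). PFKP, the platelet type, was at 104, 101 and 92.9 CPM with vehicle and at 125, 119 and 124 with DOX in the same cells, with a log2 fold change of 0.30 (SE 0.044, edgeR adjusted p = 8.97e-06). PFKM, the muscle type, rose in both lines, by 0.13 (SE 0.044, edgeR adjusted p = 0.0216) in CAL27 cells and by 0.42 (SE 0.091, edgeR adjusted p = 0.00533) in HSC3 cells, where its libraries held 35.1, 39.6 and 36.5 CPM with vehicle and, with DOX, 43.9, 52.8 and 52.2. The CAL27 call of PFKM was lost without vehicle replicate 1 (edgeR adjusted p = 0.1299), vehicle replicate 2 (0.0764), the first DOX library (0.1096) or the second (0.0764), and in 1 fit of all 12 libraries (0.228). As a share of the 3 subunits, PFKL went from 29.6% ± 0.742 to 21.5% ± 1.29 and PFKP from 41.7% ± 1.85 to 48.8% ± 1.86 in CAL27 cells (SD, n = 3), both without overlap (exact permutation p = 0.1 for each). In HSC3 cells PFKP made up 78.7% ± 0.475 with vehicle, against 41.7% ± 1.85 in CAL27 cells (SD, n = 3). With DOX the HSC3 shares were 77.7% ± 0.271 for PFKP, below every vehicle library and so opposite to CAL27 cells, 6.55% ± 0.665 for PFKL, down from 8.29% ± 0.134, and 15.8% ± 0.8297 for PFKM, up from 13.00% ± 0.479 (SD, n = 3), all without overlap (exact permutation p = 0.1 for each). Neither PFKL nor PFKP passed the test in HSC3 cells, with an edgeR adjusted p of 0.416 and 0.361. Leaving out 1 library brought each past it, with 0.0434 for PFKL without DOX replicate 2 and 6.49e-04 for PFKP without DOX replicate 1.

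The aldolases split fructose 1,6-bisphosphate, and TPI1 interconverts the products. ALDOC, the brain-type aldolase, was at 23.4, 22.3 and 23.2 CPM with vehicle and at 15.2, 14.1 and 11.2 with DOX in CAL27 cells. It was the most reduced of the upper glycolysis genes there, with a log2 fold change of -0.77 (SE 0.087, edgeR adjusted p = 2.72e-06), and was low in HSC3 cells at 1.22 ± 0.208 and 0.951 ± 0.271 CPM (SD, n = 3), where it did not pass the test (edgeR adjusted p = 0.436). ALDOA fell by a log2 fold change of -0.31 (SE 0.053, edgeR adjusted p = 6.63e-05) in CAL27 cells and of -0.47 (SE 0.12, edgeR adjusted p = 0.0135) in HSC3 cells, and the HSC3 call was lost without vehicle replicate 1 (edgeR adjusted p = 0.0642) or 2 (0.0694). Its level is uncertain because 42.8% of its exon length is shared with another annotated gene on the same strand. TPI1 fell by a log2 fold change of -0.12 (SE 0.042, edgeR adjusted p = 0.0323) in CAL27 cells although its groups overlapped, a call that was lost without vehicle replicate 1 (edgeR adjusted p = 0.136), vehicle replicate 2 (0.0808) the second DOX library (0.172) and in 1 fit of all 12 libraries (0.406). In HSC3 cells TPI1 was at 336 ± 21.4 and 291 ± 40.9 CPM (SD, n = 3; edgeR adjusted p = 0.1398).

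In lower glycolysis, 2 of 6 genes fell in CAL27 cells, 1 of 6 fell in HSC3 cells and none rose in either. PGAM1, which moves the phosphate of 3-phosphoglycerate to the next carbon, lies on chromosome 10 from 97426191 to 97433444. Its libraries held 289.8, 288 and 296 CPM with vehicle and, with DOX, 155, 150.5 and 139 in CAL27 cells. In HSC3 cells they held 307, 339 and 304 CPM with vehicle and, with DOX, 98.7, 108 and 111. The groups were far apart in both lines, and the log2 fold change was -0.98 (SE 0.042, edgeR adjusted p = 3.37e-13) in CAL27 cells and -1.58 (SE 0.071, edgeR adjusted p = 1.65e-07) in HSC3 cells. The annotation names 13 pseudogenes after PGAM1, and how reads that map to several places were counted is not given in the sources used here.

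PGK1, which makes the first ATP of the pathway, fell in CAL27 cells from 352 ± 3.14 to 309.8 ± 26.4 CPM (SD, n = 3), which gave a log2 fold change of -0.18 (SE 0.049, edgeR adjusted p = 0.00551). In HSC3 cells PGK1 was at 233, 256 and 240.3 CPM with vehicle and at 255, 294 and 274 with DOX, and did not pass the test (log2 fold change 0.17 (SE 0.068, edgeR adjusted p = 0.0833)). Without HSC3 DOX replicate 1 it did, with an edgeR adjusted p of 0.001997, as it did in 1 fit of all 12 libraries (edgeR adjusted p = 0.0472) and in DESeq2 (adjusted p = 0.0458). The other lower enzymes did not pass the test in either line. GAPDH was at 2265, 2159 and 2111 CPM with vehicle and at 2154, 1983 and 2066 with DOX in CAL27 cells and at 1744, 1887 and 1847 and 1686, 1786 and 1734 in HSC3 cells. All these libraries overlapped within their line, and the log2 fold change was -0.075 (SE 0.044, edgeR adjusted p = 0.1798) and -0.073 (SE 0.058, edgeR adjusted p = 0.414). The 65 pseudogenes that the annotation names after GAPDH make its level uncertain. ENO1, the main enolase, had a log2 fold change of -0.046 (SE 0.051, edgeR adjusted p = 0.504) and -0.15 (SE 0.093, edgeR adjusted p = 0.297), and PKM, which makes pyruvate and ATP, of 0.067 (SE 0.042, edgeR adjusted p = 0.2101) and -0.12 (SE 0.089, edgeR adjusted p = 0.389). PKM passed the test in CAL27 cells without the third DOX library (edgeR adjusted p = 0.0234). ENO2, the neuronal enolase, was at 16.98 ± 0.376 and 17.7 ± 0.776 CPM in CAL27 cells and at 9.36 ± 0.783 and 6.77 ± 2.27 in HSC3 cells (SD, n = 3), with an edgeR adjusted p of 0.508 and 0.131, the latter 0.0169 without HSC3 DOX replicate 3 and 0.0431 in 1 fit of all 12 libraries.

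PFKFB3 and PFKFB4 set the level of fructose 2,6-bisphosphate, which activates phosphofructokinase. PFKFB3 rose in CAL27 cells by a log2 fold change of 0.15 (SE 0.050, edgeR adjusted p = 0.0191), from 46.6, 48.00 and 47.4 to 55.3, 54.2 and 48.3 CPM, with no overlap. That call was lost on leaving out any 1 of the vehicle libraries or the first or second DOX library (edgeR adjusted p = 0.0671 to 0.108), and in 1 fit of all 12 libraries (0.148). In HSC3 cells PFKFB3 was at 52.5 ± 3.08 and 48.5 ± 3.97 CPM (SD, n = 3; edgeR adjusted p = 0.373). PFKFB4 was low in both lines, between 2.37 ± 0.388 and 3.605 ± 0.441 CPM (SD, n = 3) over the 4 group means, and its log2 fold change was -0.17 (SE 0.12, edgeR adjusted p = 0.284) in CAL27 cells and -0.28 (SE 0.21, edgeR adjusted p = 0.402) in HSC3 cells.

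Of the genes that decide the fate of pyruvate, LDHA changed most in HSC3 cells. LDHA, which reduces pyruvate to lactate, lies on chromosome 11 from 18394560 to 18408425. In HSC3 cells it was at 241, 274 and 296 CPM with vehicle and at 112, 131 and 112 with DOX. The groups lay far apart, and the log2 fold change was -1.19 (SE 0.090, edgeR adjusted p = 3.93e-06). In CAL27 cells LDHA was at 718, 773 and 811 CPM with vehicle and at 617, 648 and 479 with DOX, again with no overlap, but the DOX libraries were spread and the log2 fold change of -0.40 (SE 0.13, edgeR adjusted p = 0.0661) did not pass the test. It did so with an edgeR adjusted p of 6.19e-06 without the third DOX library, which was the lowest, and of 0.0167 without the second. It also passed in 1 fit of all 12 libraries (edgeR adjusted p = 0.00876) and in DESeq2, the tool of the study (adjusted p = 0.0118). LDHB, the form that favors lactate oxidation, was low in both lines, at 6.82 ± 0.651 and 7.69 ± 1.11 CPM in CAL27 cells and at 8.19 ± 1.04 and 6.66 ± 0.418 in HSC3 cells (SD, n = 3), and did not pass the test in either (edgeR adjusted p = 0.2097 and 0.1303; 0.0109 in CAL27 cells without the third DOX library). As a share of LDHA and LDHB together it was 1.76% ± 0.117 with vehicle and 2.61% ± 0.185 with DOX in CAL27 cells, against 5.82% ± 1.06 and 10.2% ± 0.456 in HSC3 cells (SD, n = 3), without overlap in either line (exact permutation p = 0.1 for each). The LDHB values are uncertain because 33.4% of its exon length is shared with another gene on the same strand.

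The pyruvate dehydrogenase kinases PDK1 and PDK3 keep pyruvate out of mitochondria. PDK3 fell in CAL27 cells from 97.9, 97.4 and 105 to 88.7, 87.5 and 89.2 CPM and in HSC3 cells from 37.04, 35.1 and 40.3 to 33.97, 29.6 and 28.9 CPM, without overlap in either line. The log2 fold change was -0.18 (SE 0.041, edgeR adjusted p = 0.00122) and -0.28 (SE 0.092, edgeR adjusted p = 0.04095). The HSC3 call was lost on leaving out any 1 of the HSC3 vehicle libraries (edgeR adjusted p = 0.0643 to 0.179), DOX replicate 2 (0.112) or DOX replicate 3 (0.146). It was also lost with DESeq2's size factors (edgeR adjusted p = 0.0587) and with the replicate block (0.0688). PDK1 did not pass the test, with a log2 fold change of -0.084 (SE 0.047, edgeR adjusted p = 0.162) in CAL27 cells and 0.044 (SE 0.078, edgeR adjusted p = 0.745) in HSC3 cells, but reached an edgeR adjusted p of 0.0209 in CAL27 cells without the first DOX library.

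SLC16A1 (MCT1), which carries lactate and pyruvate across the plasma membrane, went in opposite directions. It was at 56.9, 54.7 and 52.9 CPM with vehicle and at 63.3, 67.9 and 65.3 with DOX in CAL27 cells, which gave a log2 fold change of 0.26 (SE 0.044, edgeR adjusted p = 7.51e-05). In HSC3 cells it was at 67.3, 64.3 and 71.03 CPM with vehicle and at 45.3, 53.8 and 51.7 with DOX, which gave a log2 fold change of -0.43 (SE 0.082, edgeR adjusted p = 0.00252). The libraries did not overlap in either line. SLC16A3 (MCT4), the lactate exporter of glycolytic cells, had 11.2 ± 0.594 and 12.8 ± 1.54 CPM in CAL27 cells, with 15.1 ± 1.31 and 14.6 ± 3.58 in HSC3 cells (SD, n = 3), with an edgeR adjusted p of 0.0777 and 0.886. In CAL27 cells it passed the test without the third DOX library (edgeR adjusted p = 0.00206) and with no filter on low counts (0.0326).

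**Figure D2:**
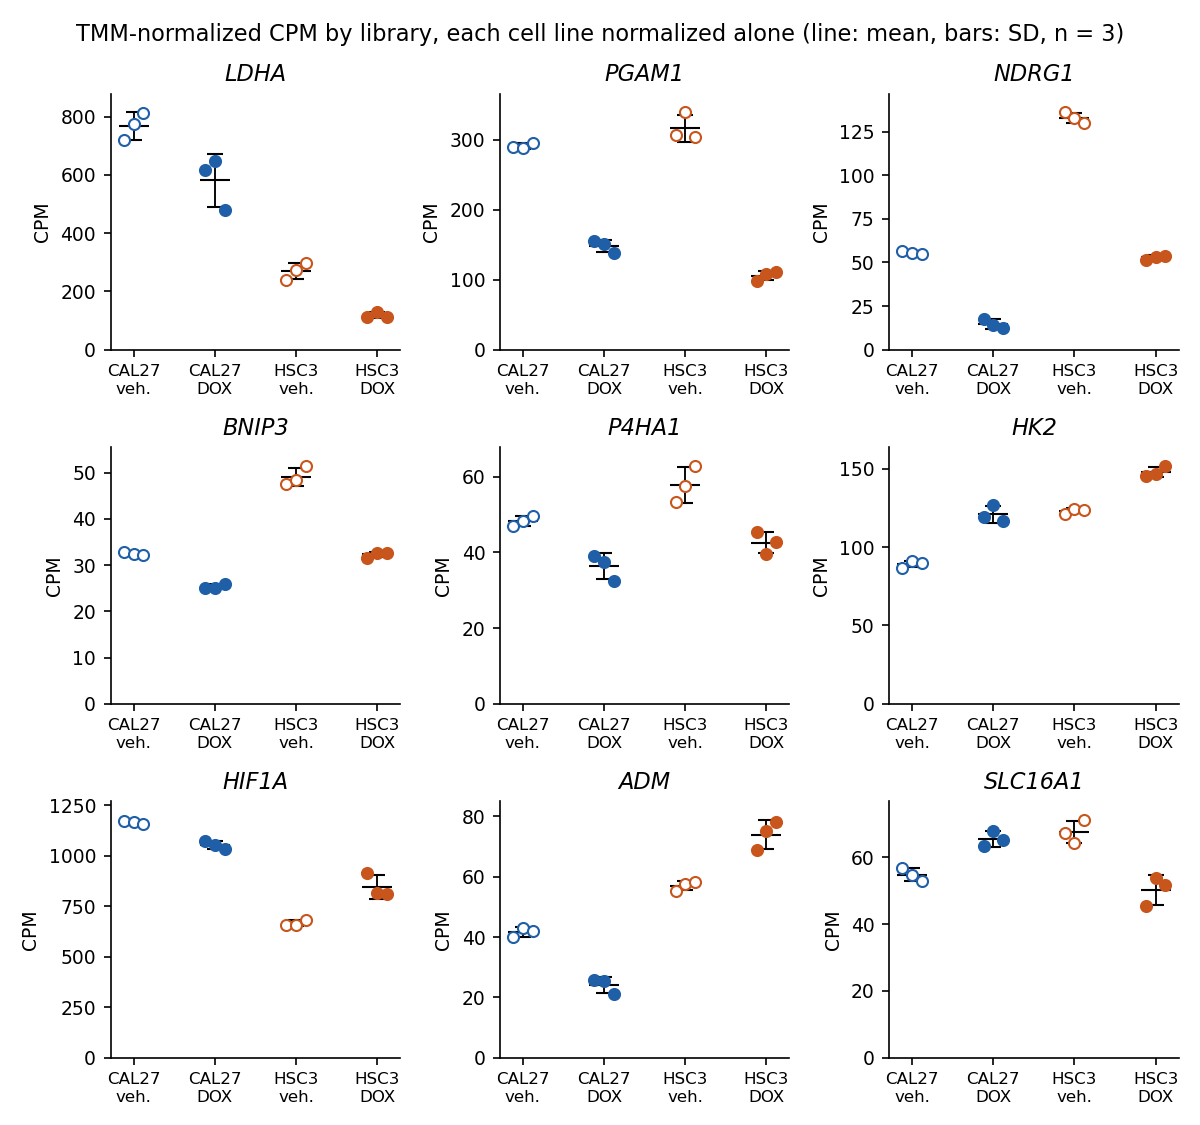
TMM-normalized CPM of 9 genes in each library, with open points for vehicle, filled points for DOX, lines for the group mean and bars for the SD (n = 3); each cell line was normalized alone. PGAM1, NDRG1, BNIP3 and P4HA1 are lower with DOX in both lines and HK2 is higher, while HIF1A, ADM and SLC16A1 change direction between the lines.

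HIF1A, the oxygen-regulated subunit of HIF-1, was among the most abundant of the 36 transcripts. In CAL27 cells it was at 1175, 1167 and 1157 CPM with vehicle and at 1073, 1055 and 1034 with DOX. In HSC3 cells it was at 660.0, 657 and 685 CPM with vehicle and at 917, 817 and 809.9 with DOX. All DOX libraries were lower in CAL27 cells and higher in HSC3 cells, with a log2 fold change of -0.15 (SE 0.038, edgeR adjusted p = 0.00334) and 0.35 (SE 0.064, edgeR adjusted p = 0.00203). The CAL27 call was lost in 1 fit of all 12 libraries (edgeR adjusted p = 0.0629). These values are of the transcript, and the HIF-1α protein, which oxygen controls after translation, was not measured. EGLN3 (PHD3), a prolyl hydroxylase that is itself induced by HIF, was at 24.5, 26.7 and 24.5 CPM with vehicle and at 14.7, 14.4 and 13.6 with DOX in CAL27 cells, which gave a log2 fold change of -0.83 (SE 0.061, edgeR adjusted p = 9.11e-10). In HSC3 cells EGLN3 was at 8.72, 11.4 and 8.21 CPM with vehicle and at 6.26, 5.89 and 8.61 with DOX, the libraries overlapped, and the edgeR adjusted p was 0.08798 (0.0268 without DOX replicate 3, 0.0478 with no filter on low counts and 0.0237 in 1 fit of all 12 libraries). EGLN1 (PHD2), the main oxygen sensor, had a log2 fold change of 0.0029 (SE 0.090, edgeR adjusted p = 0.984) in CAL27 cells and 0.31 (SE 0.18, edgeR adjusted p = 0.234) in HSC3 cells, with an edgeR adjusted p of 0.00931 in HSC3 cells without DOX replicate 1. Its level is uncertain, with 55.8% of its exon length shared with another gene on the same strand. The share of EGLN3 in the pair was 70.4% ± 1.84 with vehicle and 57.3% ± 2.44 with DOX in CAL27 cells, against 48.8% ± 3.96 and 36.3% ± 5.996 in HSC3 cells (SD, n = 3), with no overlap (exact permutation p = 0.1 for each).

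Of the 8 hypoxia effectors, 6 fell in CAL27 cells, and 4 of the 7 tested fell and 1 rose in HSC3 cells, while 21.8% of all genes fell in CAL27 cells and 15.4% fell and 13.0% rose in HSC3 cells. NDRG1, a stress-response gene that hypoxia induces strongly, had the largest change of all 36 genes in CAL27 cells. Its libraries held 56.3, 55.6 and 54.8 CPM with vehicle and, with DOX, 17.8, 14.2 and 12.5. In HSC3 cells they held 136, 133 and 129.9 CPM with vehicle and, with DOX, 51.5, 53.3 and 53.8. The groups did not overlap in either line, and the log2 fold change was -1.91 (SE 0.12, edgeR adjusted p = 5.39e-06) and -1.33 (SE 0.061, edgeR adjusted p = 1.94e-07). CA9, the membrane carbonic anhydrase that serves pH control, was at 5.63, 4.79 and 5.13 CPM with vehicle and at 1.699, 1.59 and 1.899 with DOX in CAL27 cells, which gave a log2 fold change of -1.58 (SE 0.12, edgeR adjusted p = 1.80e-09). In HSC3 cells CA9 had only 16, 6 and 17 counts in the vehicle libraries and 0, 0 and 4 in the DOX libraries, and no fold change is given. A stretch of 35.7% of the CA9 exon length lies opposite ARHGEF39, which fell as well, with a log2 fold change of -0.25 (SE 0.065, edgeR adjusted p = 0.00364) in CAL27 cells and -0.94 (SE 0.13, edgeR adjusted p = 2.70e-04) in HSC3 cells. The libraries were stranded, but how strand was used in counting is not given in the sources used here.

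BNIP3 and BNIP3L are mitophagy receptors of the outer mitochondrial membrane. BNIP3 was at 32.8, 32.4 and 32.1 CPM with vehicle and at 25.1, 25.02 and 26.00 with DOX in CAL27 cells and at 47.6, 48.4 and 51.4 and 31.7, 32.7 and 32.7 in HSC3 cells. It fell in both lines without overlap, with a log2 fold change of -0.35 (SE 0.049, edgeR adjusted p = 5.94e-06) and -0.60 (SE 0.073, edgeR adjusted p = 1.17e-04), and its 44 named pseudogenes make the level uncertain. BNIP3L fell in CAL27 cells, from 69.2, 71.3 and 69.3 to 61.2, 53.9 and 55.7 CPM (log2 fold change -0.30 (SE 0.047, edgeR adjusted p = 2.87e-05)), and overlapped in HSC3 cells, at 175 ± 11.3 and 193 ± 20.3 CPM (SD, n = 3; log2 fold change 0.14 (SE 0.083, edgeR adjusted p = 0.267)). BNIP3L made up 77.7% ± 0.997 of the pair with vehicle and 85.2% ± 1.53 with DOX in HSC3 cells (SD, n = 3; no overlap, exact permutation p = 0.1). P4HA1, a collagen prolyl hydroxylase, was at 47.00, 48.2 and 49.5 CPM with vehicle and at 39.02, 37.5 and 32.4 with DOX in CAL27 cells and at 53.3, 57.6 and 62.7 and 45.4, 39.7 and 42.6 in HSC3 cells. All DOX libraries were below all vehicle libraries in both lines, and the log2 fold change was -0.41 (SE 0.059, edgeR adjusted p = 1.20e-05) and -0.44 (SE 0.085, edgeR adjusted p = 0.00257).

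The secreted factors of the group went different ways. ADM, which encodes the vasodilator peptide adrenomedullin, was at 40.1, 43.1 and 41.96 CPM with vehicle and at 25.9, 25.3 and 21.1 with DOX in CAL27 cells. Its HSC3 libraries were at 55.4, 57.6 and 58.1 CPM with vehicle and at 68.9, 75.1 and 78.00 with DOX. It fell without overlap in CAL27 cells and rose without overlap in HSC3 cells, with a log2 fold change of -0.79 (SE 0.066, edgeR adjusted p = 2.07e-08) and 0.37 (SE 0.071, edgeR adjusted p = 0.00228). VEGFA, the main angiogenic growth factor, was at 74.5, 81.9 and 77.1 CPM with vehicle and at 75.4, 83.1 and 74.7 with DOX in CAL27 cells, where the groups overlapped (log2 fold change -0.0021 (SE 0.048, edgeR adjusted p = 0.978)). In HSC3 cells VEGFA fell from 157, 159 and 167 CPM to 119, 114 and 112, which gave a log2 fold change of -0.49 (SE 0.059, edgeR adjusted p = 1.17e-04). ANKRD37, a small HIF target, was at or under 1.52 CPM in every library and did not pass the test (edgeR adjusted p = 0.0835 and 0.553), and 40.3% of its exon length lies opposite UFSP2.

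Whether the response to DOX differed between the lines was tested by an interaction term in 1 model of all 12 libraries. The response in HSC3 cells was higher than in CAL27 cells for 6 of the 36 genes and lower for 5, against 8.25% and 12.3% of all genes tested. The 6 were HK1, PGK1, HIF1A, ADM, BNIP3L and NDRG1, and the 5 were PGAM1, LDHA, SLC16A1, VEGFA and BNIP3. Among these 11, ADM differed most, by a log2 value of 1.17 (SE 0.11, edgeR adjusted p = 2.16e-06), and LDHA differed most in the other direction, by -0.79 (SE 0.14, edgeR adjusted p = 0.00106). CA9, with almost no counts in HSC3 cells, was not called (edgeR adjusted p = 0.0976), but was without HSC3 DOX replicate 3 (0.00266), and no fold is given for it. PFKM, at 0.29 (SE 0.10, edgeR adjusted p = 0.0588), passed the test in DESeq2 (adjusted p = 0.0211). SLC2A1, at 0.23 (edgeR adjusted p = 0.109), passed it in DESeq2, with counts per molecule and without HSC3 DOX replicate 1. ENO2, at -0.52 (edgeR adjusted p = 0.141), did so with counts per molecule and without HSC3 DOX replicate 3. GPI, EGLN1 and PFKL did so only without HSC3 DOX replicate 1. LDHB passed without the third CAL27 DOX library or HSC3 vehicle replicate 2, and PFKFB3 without that CAL27 library or HSC3 DOX replicate 2. For SLC16A1 the difference was -0.68 (SE 0.091, edgeR adjusted p = 7.72e-05) and for HIF1A 0.49 (SE 0.075, edgeR adjusted p = 2.31e-04). PGAM1 fell further in HSC3 cells, by -0.60 (SE 0.086, edgeR adjusted p = 1.25e-04), and NDRG1 fell further in CAL27 cells, by 0.58 (SE 0.13, edgeR adjusted p = 0.00429). VEGFA differed by -0.48 (SE 0.077, edgeR adjusted p = 3.52e-04), HK1 by 0.38 (SE 0.085, edgeR adjusted p = 0.00464), BNIP3L by 0.44 (SE 0.11, edgeR adjusted p = 0.00891) and PGK1 by 0.36 (SE 0.093, edgeR adjusted p = 0.0121). BNIP3 was closest to the threshold, at -0.25 (SE 0.079, edgeR adjusted p = 0.03695), and its call was lost without any 1 of the CAL27 libraries, HSC3 vehicle replicate 2 or 3, or HSC3 DOX replicate 3 (edgeR adjusted p = 0.0592 to 0.118), with DESeq2's size factors (0.0534) and with no filter on low counts (0.113). For P4HA1 the difference was -0.030 (SE 0.11, edgeR adjusted p = 0.918), for GPI 0.041 (SE 0.088, edgeR adjusted p = 0.825) and for HK2 -0.18 (SE 0.066, edgeR adjusted p = 0.07297). The number of genes with a higher response in HSC3 cells rested on HSC3 DOX replicate 1, without which it was 11 in place of 6, and the number lower was 5 in both fits.

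**Figure D3:**
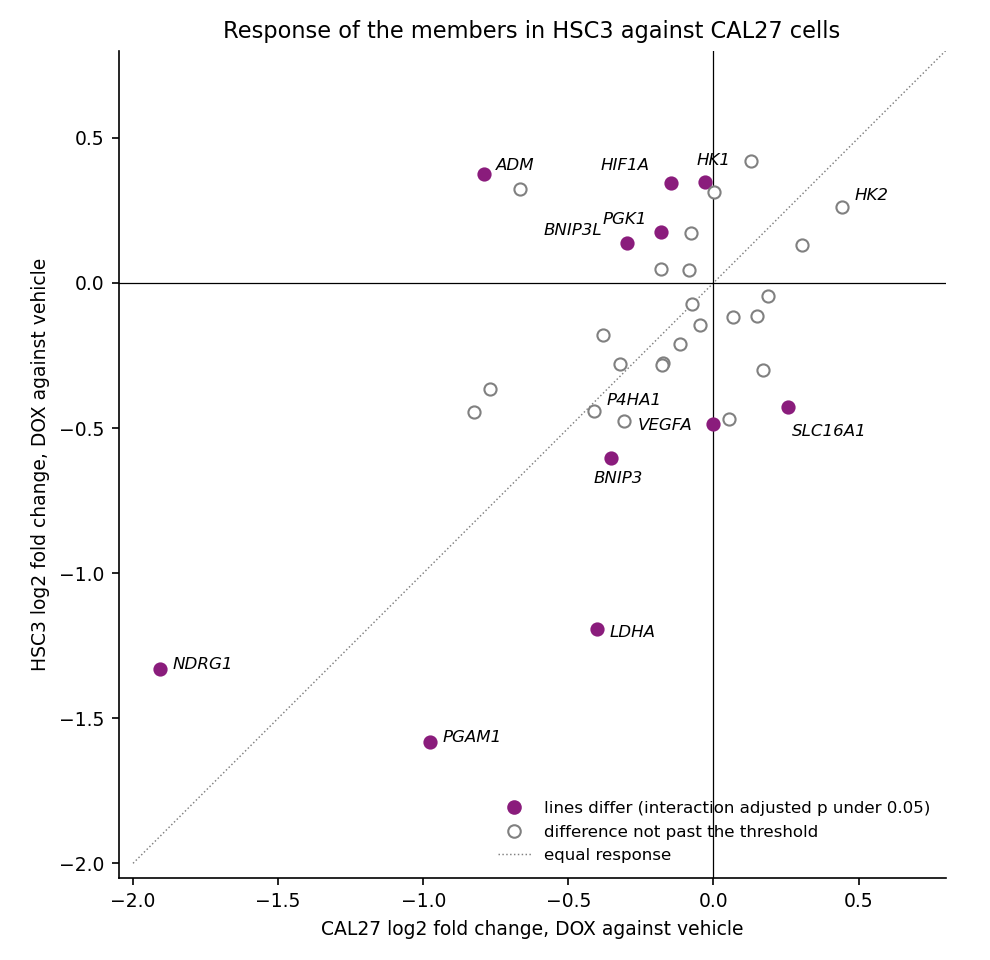
Log2 fold change with DOX in HSC3 cells against that in CAL27 cells for the 35 genes tested in both, with filled points where the interaction had an edgeR adjusted p under 0.05 and a dotted line of equal response. NDRG1 lies above the line and PGAM1 and LDHA below it, ADM and HIF1A sit in the quadrant lower in CAL27 and higher in HSC3, and SLC16A1 sits in the opposite one.

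With vehicle, the lines differed in most of these genes. On 1 scale for all libraries, 17 genes were higher and 16 lower in HSC3 than in CAL27 vehicle-treated cells, and 3 were not called, with 30.6% and 32.3% of all genes called. Per kilobase of exon, GAPDH was the most abundant of the 36 in both lines, at 826 ± 35.1 CPM per kb in CAL27 cells and 837 ± 36.7 in HSC3 cells (SD, n = 3). PKM followed at 272 ± 5.59 in CAL27 cells and ENO1 at 151 ± 9.098 in HSC3 cells, where PKM at 146 ± 5.37 was within the SD of ENO1 (SD, n = 3). On this scale HIF1A was the fourth in both, at 206 ± 2.803 and 142 ± 2.85 CPM per kb (SD, n = 3), and exceeded LDHA in each. These ranks depend on the length taken for each gene, and no other length was tried for them. All annotated exons of LDHA span 6026 bases and its longest transcript 2241, against 5151 and 3956 for HIF1A. The order of LDHA and HIF1A is therefore not settled.

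The hypoxia effectors leaned to HSC3 cells with vehicle, where 7 of 8 were higher. In log2 of the ratio of HSC3 to CAL27 vehicle levels, VEGFA was at 1.32 (SE 0.055, edgeR adjusted p = 8.99e-12), NDRG1 at 1.53 (SE 0.091, edgeR adjusted p = 6.13e-10) and BNIP3L at 1.60 (SE 0.078, edgeR adjusted p = 5.94e-11). CA9 was the exception and was lower in HSC3 cells (edgeR adjusted p = 7.98e-09). Its HSC3 vehicle libraries held only 16, 6 and 17 counts, so no fold is given for it. Of the enzymes, 6 of 9 in upper and 4 of 6 in lower glycolysis were lower in HSC3 cells, among them PFKL at -1.19 (SE 0.12, edgeR adjusted p = 3.09e-07) and ALDOC at -3.95 (SE 0.18, edgeR adjusted p = 3.00e-11). LDHA was lower as well, at -1.23 (SE 0.10, edgeR adjusted p = 3.75e-08). SLC2A3 had the largest difference of the 36, at 6.32 (SE 0.20, edgeR adjusted p = 3.50e-13), and PFKP was higher in HSC3 cells as well, at 1.56 (SE 0.083, edgeR adjusted p = 1.76e-10). GAPDH did not pass the test, at 0.020 (SE 0.052, edgeR adjusted p = 0.758).

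**Figure D4:**
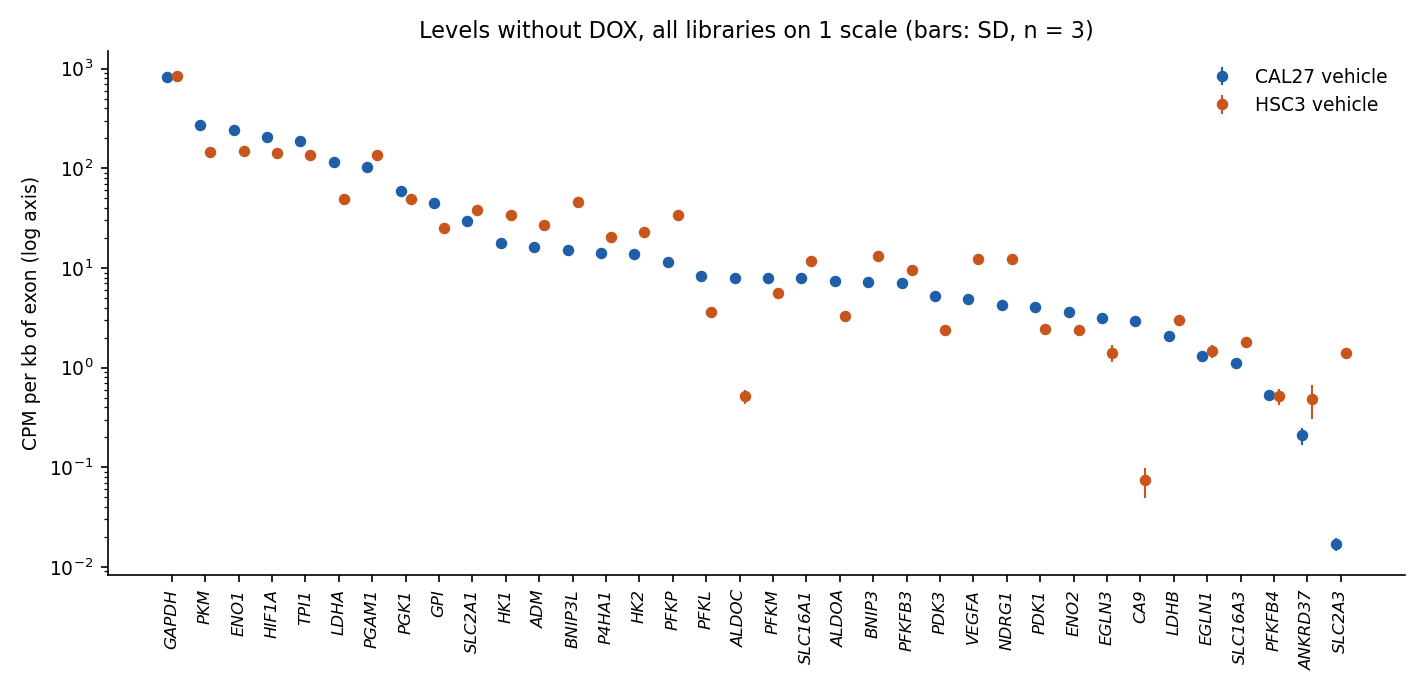
Level of each gene in vehicle-treated cells in CPM per kilobase of exon on a log axis, ordered by the CAL27 mean (blue; HSC3 in orange), with bars for the SD (n = 3). The levels span from GAPDH at 826 ± 35.1 down to SLC2A3 at 0.0171 ± 0.00256 CPM per kb in CAL27 cells, and SLC2A3, CA9 and ALDOC are furthest apart between the lines.

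Other genes of these pathways were read from wider lists. Of 37 further hypoxia targets tested in CAL27 cells, 9 rose and 17 fell, against 22.6% and 21.8% of all genes. Of 36 in HSC3 cells, 6 rose and 10 fell, against 13.0% and 15.4%. In what follows the CAL27 log2 fold change is given before that of HSC3. VLDLR, at -1.12 (edgeR adjusted p = 9.75e-11) and -1.13 (2.11e-05), MXI1, at -0.92 (1.16e-10) and -0.38 (0.00456), and IGFBP3, at -0.84 (2.01e-08) and -1.19 (4.48e-05), fell in both lines. So did PPP1R3C, a glycogen-targeting subunit, at -0.46 (0.00692) and -1.37 (1.36e-05). LOX, the collagen cross-linking oxidase, had -0.46 (edgeR adjusted p = 7.17e-06) and 1.38 (5.19e-06). The median over the list was -0.19 for CAL27 and -0.23 for HSC3. Among 15 regulators of HIF, 4 rose and 3 fell in each line. HIF1AN (FIH), the asparaginyl hydroxylase that limits HIF activity, rose in both, by 0.35 (edgeR adjusted p = 2.32e-07) and 0.51 (9.71e-05). CITED2, which competes with HIF-1α for its coactivators, had a log2 fold change of -0.25 (1.53e-04) in CAL27 cells and of 0.97 (3.86e-06) in HSC3 cells. ELOC had 0.21 (5.07e-04) and 0.052 (0.672), and SIAH2, a ubiquitin ligase of the prolyl hydroxylases, fell in both lines, at -0.21 (4.79e-04) and -0.62 (7.31e-04).

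Of 19 other glycolysis genes tested in CAL27 cells 3 rose and 6 fell, and of 15 in HSC3 cells 1 rose and 6 fell. ADPGK, an ADP-dependent glucokinase, fell in both lines, with a log2 fold change of -0.99 (edgeR adjusted p = 8.72e-13) and -1.19 (2.89e-06). PGM2 rose in both, by 0.29 (edgeR adjusted p = 4.84e-06) and 0.55 (6.50e-05), while BPGM fell in both, at -0.38 (4.49e-04) and -0.95 (4.39e-04). EMB, a partner of the lactate transporters, had -0.028 (edgeR adjusted p = 0.603) in CAL27 cells and fell in HSC3 cells, at -0.74 (7.53e-05). For the entry of pyruvate into mitochondria, 6 of 12 genes rose and 1 fell in CAL27 cells, and 3 rose and 1 fell in HSC3 cells. MPC1, a subunit of the mitochondrial pyruvate carrier, rose in both lines, by 0.36 (edgeR adjusted p = 1.43e-05) and 0.61 (0.00914). PDP2 and DLD did as well, PDP2 by 0.24 (9.55e-04) and 0.47 (0.00113) and DLD by 0.22 (9.55e-05) and 0.46 (6.94e-04). PC, pyruvate carboxylase, had 0.25 (2.66e-04) and -0.25 (0.189), and PDK2 had -0.25 (0.00313) and 0.065 (0.772).

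In the pentose phosphate pathway, which branches off glucose 6-phosphate, 2 of 7 genes rose and 1 fell in CAL27 cells, and 1 rose and 3 fell in HSC3 cells. RPIA rose in both lines, by 0.65 (edgeR adjusted p = 2.44e-09) and 1.22 (5.55e-06). PGD, a dehydrogenase of its oxidative branch, had -0.13 (edgeR adjusted p = 0.0535) in CAL27 cells and fell in HSC3 cells, at -0.67 (9.76e-05). TKT fell in both, at -0.20 (3.33e-04) and -0.32 (0.0236), and RPE had 0.15 (0.0112) and 0.017 (0.913). Of the glucose-sensing MondoA genes, 3 of 5 rose and 1 fell in CAL27 cells and 3 of 4 rose in HSC3 cells. MLXIPL (ChREBP) fell in CAL27 cells, at -1.89 (edgeR adjusted p = 1.03e-08), and had too few counts to be tested in HSC3 cells. MLX, MLXIP and TXNIP rose in both lines, with TXNIP, an inhibitor of glucose uptake, at 0.19 (edgeR adjusted p = 0.00268) in CAL27 cells and 0.78 (0.00264) in HSC3 cells. Of the 13 mitochondrially encoded genes 1 rose in CAL27 cells and all 13 rose in HSC3 cells. Their share of all counts was 5.91% to 6.50% with vehicle and 7.53% to 9.60% with DOX in HSC3 cells, and whether that had a part in the HSC3 results was not tested.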

How the data were processed

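RNA-seq was performed on CAL27 and HSC3 cells with tet-MUC1shRNA, with 3 libraries in each of 4 groups. Libraries were TruSeq Stranded mRNA. The submitters' processing notes name FastQC 0.11.9, STAR 2.7.9a, featureCounts and Subread 2.0.1 with the build GRCh38. The authors deposited 1 table of raw counts per cell line, whole numbers by gene symbol and not normalized. Annotation, strand setting and the treatment of duplicate and multiply mapped reads are not given in the sources used here. Gene positions and overlaps come from GENCODE v44 on GRCh38, and promoters from RefSeq on GRCh38.p14.

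Counts were tested in R 4.3.3 with edgeR 4.0.16 (filterByExpr at its minimum count of 10 and minimum total of 15, TMM, glmQLFit with robust estimation, glmQLFTest, two-sided, Benjamini-Hochberg over all genes tested). Each line was fitted alone, and the interaction and the vehicle levels came from 1 fit of 12 libraries. Standard errors (SE) were derived from each log2 fold change and the square root of its F statistic. Shares within a family used counts per kilobase of exon and an exact permutation test. The fits were tested on simulated counts. DESeq2 1.42.0, which the study used, other normalizations, filters and fold thresholds, division by the counts per molecule, a replicate block and leaving out each library were the alternatives. The counts that 1 molecule gave were estimated in each library from the share of genes without a count among those expected to have 8 to 16.

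In the CAL27 table the DOX columns carry the numbers 4, 5 and 6 while the labels number these samples 1 to 3, so they were mapped to their group without a replicate number and are called the first, the second and the third DOX library. No 2 libraries of a group held the same values, and each was counted as 1 replicate. All 36 genes are named, with MUC1, and of each wider list up to 3 genes per line with the largest change among those with an adjusted p under 0.05 and a mean log2 CPM of at least 3. One gene that this rule names is not reported here. KRT14, EPCAM and MLXIPL were named after their values were seen. The members and lists were chosen with earlier results of these data known.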

Additional observations from a re-analysis of the deposited data

Results flagged for a closer look

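The response to DOX differed between the lines for 11 of the 36 genes by the interaction test, given as the HSC3 minus the CAL27 log2 fold change. The response was higher in HSC3 cells for ADM at 1.17 (SE 0.11, edgeR adjusted p = 2.16e-06), NDRG1 at 0.58 (SE 0.13, edgeR adjusted p = 0.00429), HIF1A at 0.49 (SE 0.075, edgeR adjusted p = 2.31e-04), BNIP3L at 0.44 (SE 0.11, edgeR adjusted p = 0.00891), HK1 at 0.38 (SE 0.085, edgeR adjusted p = 0.00464) and PGK1 at 0.36 (SE 0.093, edgeR adjusted p = 0.0121). It was lower in HSC3 cells for LDHA at -0.79 (SE 0.14, edgeR adjusted p = 0.00106), SLC16A1 at -0.68 (SE 0.091, edgeR adjusted p = 7.72e-05), PGAM1 at -0.60 (SE 0.086, edgeR adjusted p = 1.25e-04), VEGFA at -0.48 (SE 0.077, edgeR adjusted p = 3.52e-04) and BNIP3 at -0.25 (SE 0.079, edgeR adjusted p = 0.03695). ADM, HIF1A and SLC16A1 were called in opposite directions in the lines. The CAL27 call of HIF1A was lost in 1 fit of all 12 libraries (edgeR adjusted p = 0.0629). With 3 libraries in each group, no library was tested as an outlier. HSC3 DOX replicate 1 differed from replicates 2 and 3 by a chi-square per degree of freedom of 119 and 79.6. Between replicates 2 and 3 it was 20.1. HSC3 DOX replicate 1 also had the fewest genes with a count of all libraries, 19128, and the highest mitochondrial share, 9.60%.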

How the results depend on the processing

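Of the 36 genes, 5 rose and 17 fell in CAL27 cells, 5 rose and 10 fell in HSC3 cells, 6 had a higher and 5 a lower response in HSC3 cells, and 17 were higher and 16 lower in HSC3 vehicle-treated cells. A fold change above 2 left 0 and 2, 0 and 3, 1 and 0, and 6 and 7 of these, and above 1.5 it left 0 and 6, 0 and 4, 1 and 3, and 11 and 11. In 1 fit of 12 libraries 3 rose and 13 fell in CAL27 cells, and 6 rose and 13 fell in HSC3 cells. With library totals, 13 genes were higher and 17 lower in HSC3 vehicle-treated cells. Leaving out 1 library gave 3 to 8 that rose and 16 to 18 that fell in CAL27 cells. In HSC3 cells it gave 5 to 8 that rose and 7 to 11 that fell. It gave 6 to 11 with a higher and 4 to 6 with a lower response in HSC3 cells. The cause was not tested.

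No paired analysis was possible in CAL27 cells because the DOX columns carry no replicate number of the labels. In HSC3 cells the replicate block gave 5 genes that rose and 9 that fell. The deviations of same-numbered libraries correlated at -0.025, 0.046 and -0.0064, and of the 3 numbers only libraries 2 correlated best with their own. With 3 libraries in each group, these values cannot tell whether same-numbered cultures were paired, which the labels do not say.

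Signs changed only for values that were not called in the fit as reported. In CAL27 cells EGLN1 went to -0.013 with library totals and -0.0059 with counts per molecule, and VEGFA to 0.0077 with no filter on low counts, 0.0012 in DESeq2 and 0.00066 in 1 fit of 12 libraries. The difference for GAPDH was -0.0073 with library totals. The HSC3 against CAL27 vehicle level of GAPDH was -0.025 with DESeq2 size factors, -0.25 with library totals (edgeR adjusted p = 0.000282), -0.0049 with no filter, -0.025 in DESeq2 and -0.019 with counts per molecule, and that of EGLN1 was -0.099 with library totals, which moved the median of all genes from -0.12 to -0.39. Leaving out 1 library also gave values on both sides of 0. In CAL27 cells these ran from -0.23 to 0.041 for SLC2A3, -0.057 to 0.022 for HK1, -0.096 to 0.025 for ENO1, -0.064 to 0.074 for EGLN1 and -0.051 to 0.031 for VEGFA, and in HSC3 cells from -0.024 to 0.10 for SLC2A1, -0.0015 to 0.072 for PDK1 and -0.18 to 0.14 for SLC16A3. For the difference they ran from -0.0034 to 0.14 for GPI, -0.14 to 0.035 for TPI1, -0.015 to 0.051 for GAPDH, -0.19 to 0.022 for ENO1, -0.24 to 0.033 for PFKFB4 and -0.090 to 0.045 for P4HA1, and for the vehicle levels from -0.014 to 0.044 for GAPDH and -0.16 to 0.085 for PFKFB4. So did the family shares, in percentage points of DOX minus vehicle, of SLC2A3 at -0.00267 to 0.00973 in CAL27 and -0.0105 to 0.687 in HSC3 cells, of ALDOC at -0.989 to 2.20 and of PFKFB4 at -1.10 to 0.0618 in HSC3 cells, and of SLC16A3 at -1.30 to 0.130 and of BNIP3L at -0.0950 to 1.31 in CAL27 cells. The longest transcript in place of all exons reversed no share but moved some. In CAL27 cells HK2 went from 8.124 to 7.475, PFKL from -8.087 to -6.489 and PFKM from 1.008 to 0.0235. EGLN3 went from -13.09 to -9.556 and LDHB from 0.8497 to 0.6204 there. In HSC3 cells PFKL went from -1.747 to -1.159 and LDHB from 4.406 to 3.324. With no length LDHB was at 0.4301 in CAL27 and 2.368 in HSC3 cells.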
